A study of Homo sapiens with 4 samples.

Results

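Expression of 53 human genes that serve protein entry into the endoplasmic reticulum (ER), N-linked glycosylation and ER folding was examined in mantle cell lymphoma cells exposed to CC-292, which blocks Bruton tyrosine kinase (BTK), an enzyme of B-cell receptor signalling. The genes were listed by function with earlier results of these arrays known, and the levels and differences that accompany the list are therefore described here without a test. Of the 53 genes, 52 had a probe set with a single gene symbol, among 18239 such genes on the array, and SEC61G was not analysed here. Those 52 also reached the brightness minimum that 10823 genes reached, a log2 signal of 4.63 on at least 1 array. The groups were REC-1 cells with CC-292, REC-1 control cells, Z138 cells with CC-292 and Z138 control cells, with 1 array each. REC-1 and Z138 are established human lines of mantle cell lymphoma, a B-cell cancer with cyclin D1 overexpression. Each line stands for itself, and each group rests on a single array. Exposure lasted 48 h by the protocol shared by all samples, although the title of the Z138 control states no time. The protocol states a dose of 1 uM and the titles of the treated samples state 1 mM, and the labels name no vehicle for the controls.

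Proteins bound for secretion or the cell surface are recognised while still on the ribosome by the signal recognition particle, delivered to its receptor on the ER and threaded through the SEC61 channel. Signal peptidase then removes the leading sequence, oligosaccharyltransferase attaches a preassembled glycan, and chaperones and disulfide isomerases fold the chain. Chains that fail are sent back to the cytosol for degradation, and glycans of those that pass are branched in the Golgi. In the B lineage this machinery expands when cells turn into antibody-secreting plasma cells, largely through the transcription factor XBP1, a branch of the unfolded protein response that ATF6 and ATF4 also serve. XBP1 and ATF6 act through short promoter elements called ERSE, ERSE-II and UPRE.

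Promoters were searched for these elements because the chaperone genes among the members are textbook targets of ATF6 and XBP1. Windows from 250 bases before to 50 after each annotated start (RefSeq, GRCh38.p14) were matched for 46 of the 53 genes (all but DERL1, MGAT4A, PDIA3, RPN1, SPCS1, SRPRA and STT3B). ERSE was searched as CCAAT and CCACG with 9 free bases between them, ERSE-II as ATTGG and CCACG with 1 free base between them, and UPRE as TGACGTGG, each on both strands. ERSE was found in 6 of the 46 genes (CALR, CANX, CRELD2, HSP90B1, HSPA5 and PDIA6), against 25 of 27305 genes with a window (0.0916%) and 0.0769% of all 35116 windows. ERSE-II was found in 2 of the 46 (HYOU1 and SDF2L1), against 0.0696% of genes and 0.0541% of windows. UPRE was found in 5 of the 46 (HYOU1, SEC62, SRP19, SSR3 and SSR4), against 0.927% of genes and 0.729% of windows. Because the elements were chosen for known targets among these genes, higher shares were to be found beforehand and are no independent result. The windows of 4 genes are shown because they belong to the main ER chaperones and a disulfide isomerase and differ in the number of elements they hold. They lie at chr9:125241294-125241593 (minus strand), chr12:103930160-103930459 (plus strand), chr11:119057156-119057455 (minus strand) and chr2:10812736-10813035 (minus strand, 1 of 2 windows of that gene). Each is written 5′ to 3′ along the gene, with the fixed letters of an element in capitals.
HSPA5: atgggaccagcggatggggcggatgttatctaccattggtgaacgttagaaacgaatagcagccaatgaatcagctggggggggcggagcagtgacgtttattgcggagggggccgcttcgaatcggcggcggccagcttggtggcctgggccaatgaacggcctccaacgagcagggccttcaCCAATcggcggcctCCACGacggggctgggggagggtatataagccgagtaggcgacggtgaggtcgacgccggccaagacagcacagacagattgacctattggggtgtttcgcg
HSP90B1: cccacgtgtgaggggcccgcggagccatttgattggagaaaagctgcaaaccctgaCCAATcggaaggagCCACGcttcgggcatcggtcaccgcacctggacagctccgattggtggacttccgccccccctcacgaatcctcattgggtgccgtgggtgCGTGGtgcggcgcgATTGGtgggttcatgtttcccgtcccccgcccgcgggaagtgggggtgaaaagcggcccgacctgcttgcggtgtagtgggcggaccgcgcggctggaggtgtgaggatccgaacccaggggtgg
HYOU1: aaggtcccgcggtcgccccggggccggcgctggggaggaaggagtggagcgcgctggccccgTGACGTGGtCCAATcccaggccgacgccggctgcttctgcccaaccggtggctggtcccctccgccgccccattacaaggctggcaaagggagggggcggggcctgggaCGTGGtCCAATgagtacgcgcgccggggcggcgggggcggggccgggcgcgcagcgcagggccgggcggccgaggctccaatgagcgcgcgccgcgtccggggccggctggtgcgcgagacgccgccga
PDIA6: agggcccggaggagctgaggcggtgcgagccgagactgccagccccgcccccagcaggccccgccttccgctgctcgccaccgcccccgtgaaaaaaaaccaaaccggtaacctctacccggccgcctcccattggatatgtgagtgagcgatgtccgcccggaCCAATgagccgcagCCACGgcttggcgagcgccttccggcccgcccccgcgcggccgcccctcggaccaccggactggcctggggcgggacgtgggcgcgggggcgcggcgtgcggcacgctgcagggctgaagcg
HSPA5 and PDIA6 each held 1 ERSE, and HSP90B1 held 2, the second of them on the opposite strand. HYOU1 held 2 ERSE-II matches on the opposite strand, of which the one farther from the start overlapped its UPRE. For the other 4 genes the element alone is shown, read in its own direction, with the spacer in lower case.
CALR: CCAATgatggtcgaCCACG
CANX: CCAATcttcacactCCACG
CRELD2: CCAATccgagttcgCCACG
SDF2L1: ATTGGtCCACG
The CANX element was the same bases seen from 3 of its 4 annotated starts. A match describes letters in a window and shows no binding.

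Values are log2 signals of the brightest probe set of a gene, so a difference of 1 is 2-fold. The SD given with a difference is the spread over the probe sets of that gene that reached the minimum. It holds no error between cultures, which 1 array per group leaves unknown. Pooled over genes with several probe sets, that SD was 0.31 for CC-292 in REC-1, 0.25 for CC-292 in Z138 and 0.48 for the control lines, which is the yardstick where a gene has 1 probe set. The 4 arrays had medians of 4.63 to 4.64, and a shift shared by most genes would not be seen after such scaling. For ACTB, the 3' minus 5' signal, which tracks RNA quality, was 0.53 and 0.77 on the REC-1 CC-292 and control arrays, and 1.11 and 1.12 on the Z138 CC-292 and control arrays. For GAPDH it was -0.31 and -0.32 on the REC-1 CC-292 and control arrays, and -0.24 and -0.28 on the Z138 CC-292 and control arrays. The part of RNA quality in the differences was not tested. B-cell markers (5 of 5 measured) and CCND1 and SOX11 reached the brightness minimum on every array, whereas CD5, often present in mantle cell lymphoma, reached it on none. Of 3 measured myeloid markers none reached it, and no measured T and NK cell, erythroid or fibroblast marker exceeded 5.18. BTK itself had 9.35 with CC-292 and 9.18 in the control in REC-1, and 9.00 with CC-292 and 9.11 in the control in Z138.

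With CC-292, most of these ER genes were slightly lower in REC-1 cells and slightly higher in Z138 cells. In REC-1, 40 of 52 were below 0, with a median log2 difference of -0.16 and quartiles of -0.31 and -0.03. Only 12 were above 0, against 42.1% of all genes. Among all 10823 genes 57.8% were below 0 and the median was -0.05. In Z138, 45 of 52 were above 0, with a median of 0.15 and quartiles of 0.06 and 0.21, against 51.9% of all genes and a median of 0.0085. The 7 others were below 0, against 48.1% of all genes. Both directions together, lower in REC-1 and higher in Z138, were shown by 36 of the 52, against 31.4% of all genes. That number was 30 to 36 under the other filters, scalings and probe-set choices, where the share of all genes was 24.9% to 33.3%. Bulk RNA cannot tell fewer cells with a high level from less RNA per cell.

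**Figure D1:**
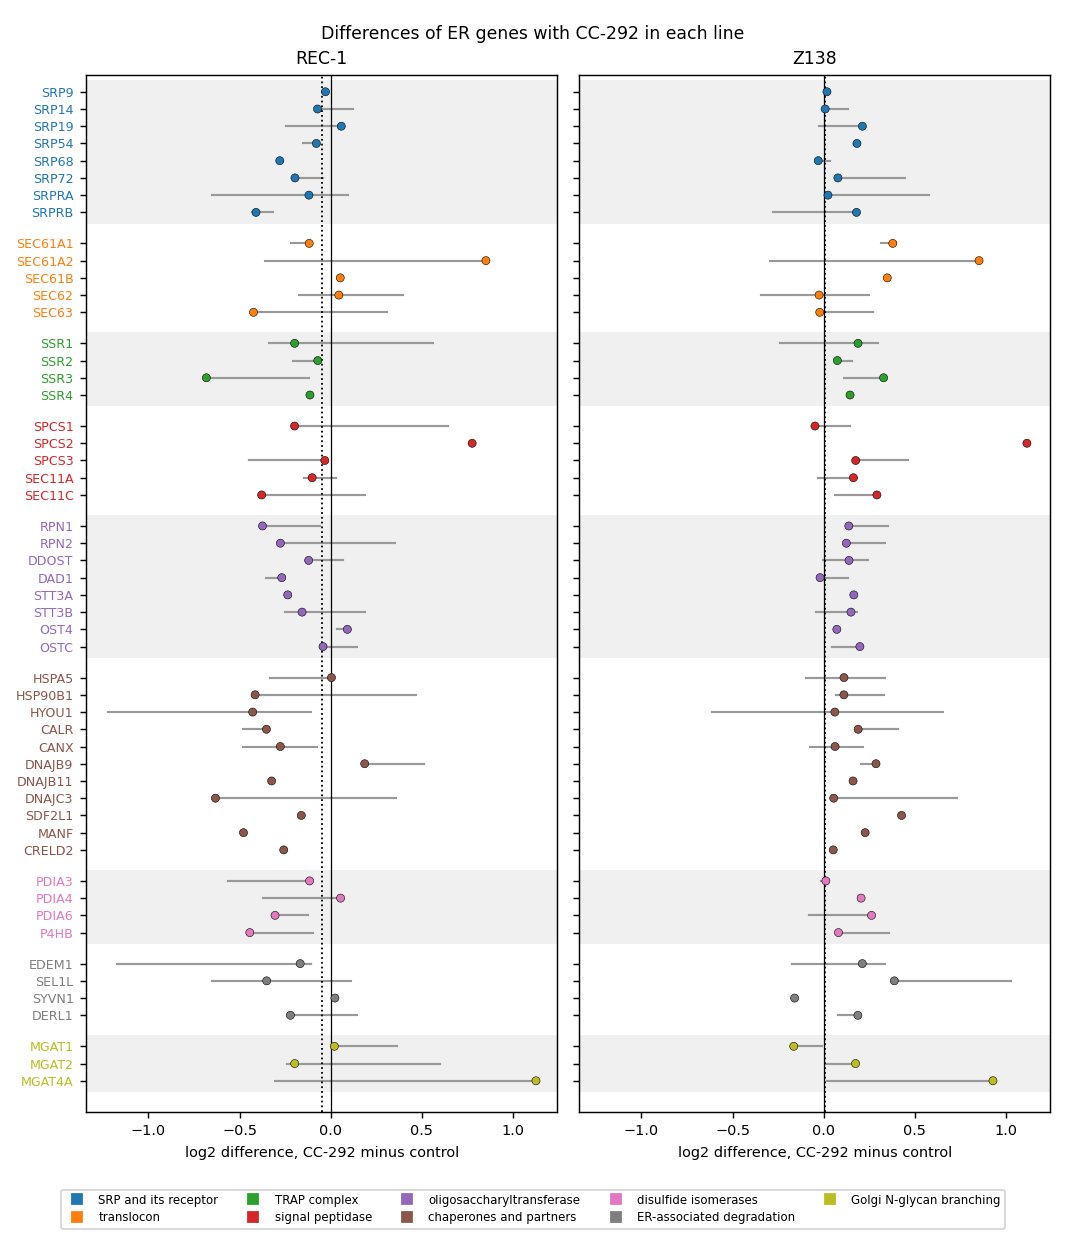
Log2 difference, CC-292 minus control, of 52 ER genes in REC-1 (left) and Z138 (right), coloured by role. Points are brightest probe sets, grey lines span the lowest to highest probe set over the brightness minimum, and dotted lines mark the median of all 10823 genes. Most points lie left of 0 in REC-1 (40 of 52) and right of 0 in Z138 (45 of 52).

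Single differences were small. In REC-1, 2 members were at least 1.5-fold lower (SSR3 and DNAJC3, with 4.73% of all genes that far down) and 3 were at least 1.5-fold higher (MGAT4A, SEC61A2 and SPCS2, with 4.32% of all genes that far up). In Z138 no member was at least 1.5-fold lower, against 2.52% of all genes, and the same 3 members were at least 1.5-fold higher, against 2.18%. At least 2-fold higher were MGAT4A in REC-1 (0.841% of all genes) and SPCS2 in Z138 (0.213%), and no member was 2-fold lower in REC-1 (0.758%) or Z138 (0.351%). Members past 1.5-fold in REC-1 were thus about as frequent as among all genes, and the split between the lines lay in many small differences. MGAT4A, SEC61A2 and SPCS2 were the dimmest of the 52 and the 3 whose highest value stayed under the 70th percentile of all values (6.61). Of the 10823 genes, 24 were at least 1.5-fold higher in both lines (0.222%), and 17 of those were among the 3116 genes under that percentile. SPCS2 reached the brightness minimum only with CC-292 in each line, and MGAT4A only in REC-1.

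**Figure D2:**
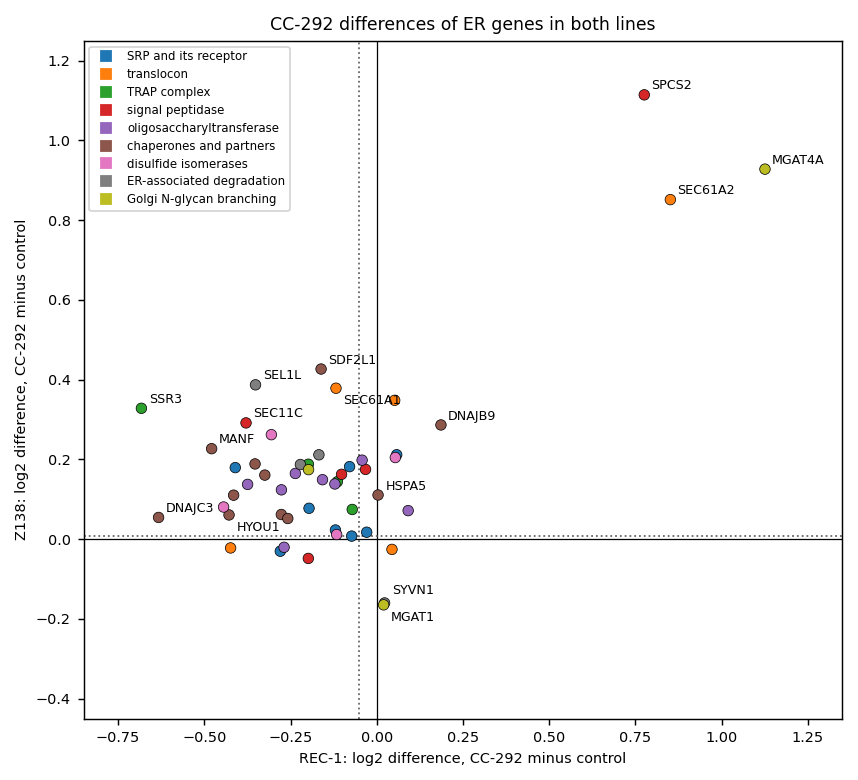
Log2 difference of each of the 52 ER genes with CC-292 in REC-1 (horizontal) and Z138 (vertical), coloured by role, with dotted lines at the medians of all genes. The upper left part holds 36 genes and the upper right part 9, of which SPCS2, MGAT4A and SEC61A2 lie far from the others.

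The differences in REC-1 and in Z138 come from separate arrays. Across the 52 genes they had a Pearson r of 0.64 and a Spearman rho of 0.12, and without the 3 dim genes an r of -0.11 and a rho of -0.048 (49 genes). These genes share arrays and probe-set design, so the values are descriptive.

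Among the 8 genes of targeting, differences were modest in both lines. In REC-1 7 of 8 were below 0 (median -0.10), and in Z138 7 of 8 were above 0 (median 0.05). SRPRB, the membrane anchor of the receptor, was the lowest in REC-1 and stood at 9.09 on the REC-1 CC-292 array against 9.50 on the REC-1 control array, and 9.75 on the Z138 CC-292 array against 9.57 on the Z138 control array. Its differences were -0.41 in REC-1 (SD 0.06 over 3 probe sets) and 0.18 in Z138 (SD 0.25 over 3 probe sets). In REC-1 all 3 of its probe sets were lower with CC-292, whereas in Z138 their mean was 0.01. SRP68 and SRP72, which bind each other on the particle's RNA, differed by -0.28 and -0.20 in REC-1 and by -0.03 and 0.08 in Z138. SRP54, the GTPase subunit that holds the signal sequence, had 8.70 in CC-292 and 8.78 in control REC-1 cells, and 9.01 in CC-292 and 8.83 in control Z138 cells. SRP19, an assembly factor of the particle, had 10.61 with CC-292 and 10.56 in the control in REC-1, and 10.87 with CC-292 and 10.65 in the control in Z138, and was thus the highest of the 8 in Z138 at 0.21, seen on 1 of 2 probe sets (mean 0.09). SRP9 and SRP14, which pause translation, differed by -0.03 and -0.07 in REC-1 and by 0.02 and 0.0076 in Z138. The receptor GTPase gene SRPRA differed by -0.12 in REC-1 and 0.02 in Z138.

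On their brightest probe sets the subunits of the SEC61 channel were higher in Z138. The 5 measured translocon genes had a median of 0.04 in REC-1 and 0.35 in Z138. Without the dim SEC61A2 the medians were -0.04 in REC-1 and 0.16 in Z138, and with probe sets averaged the Z138 median was also 0.16. SEC61A1, the pore subunit, had 8.47 on the REC-1 CC-292 array against 8.59 on the REC-1 control array, and 9.86 on the Z138 CC-292 array against 9.49 on the Z138 control array. This was a difference of -0.12 in REC-1 and 0.38 in Z138 (SD 0.04 over 3 probe sets), with all 3 probe sets higher in Z138 and all 3 lower in REC-1. SEC61B, a small channel subunit with 1 probe set, had 10.85 with CC-292 and 10.80 in the control in REC-1, and 11.92 with CC-292 and 11.58 in the control in Z138, which left it higher in Z138 (0.35) with 0.05 in REC-1. SEC61A2, the paralogue of SEC61A1, had 5.83 in CC-292 and 4.98 in control REC-1 cells, and 6.13 in CC-292 and 5.28 in control Z138 cells. It differed by 0.85 in each line on that probe set, but its other probe sets, also dim, were lower with CC-292, down to -0.36 in REC-1 and -0.29 in Z138. The paralogues thus had the same sign in Z138 on their brightest probe sets and not in REC-1. SEC62 and SEC63, partners of the channel for chains that arrive late, differed by 0.04 and -0.42 in REC-1 and by -0.03 and -0.02 in Z138. SEC63, which brings the chaperone BiP to the channel, stood at 8.84 with CC-292 and 9.26 in the control in REC-1, and 9.51 with CC-292 and 9.53 in the control in Z138. Only 1 of its 3 probe sets was lower in REC-1 (mean -0.02), and in Z138 2 of 3 were higher (mean 0.16). For SEC62, 6 of 9 probe sets were higher in Z138 (mean 0.02).

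The translocon-associated protein (TRAP) complex, which helps chains with weak signals enter the channel, was lower in REC-1 and higher in Z138 for all 4 subunits. Medians were -0.16 in REC-1 and 0.17 in Z138. SSR3, the gamma subunit, had the lowest REC-1 difference of the 52 genes. Its levels were 8.08 on the REC-1 CC-292 array against 8.76 on the REC-1 control array, and 10.11 on the Z138 CC-292 array against 9.79 on the Z138 control array. It was 1.6-fold lower in REC-1 (-0.68, SD 0.24 over 4 probe sets) and 1.26-fold higher in Z138 (0.33, SD 0.09 over 4 probe sets). All 4 of its probe sets had 1 sign within each line. The levels of SSR1, the alpha subunit, were 10.06 with CC-292 and 10.26 in the control in REC-1, and 10.69 with CC-292 and 10.50 in the control in Z138. SSR2 differed by -0.07 in REC-1 and 0.07 in Z138, and SSR4 by -0.11 in REC-1 and 0.14 in Z138. SSR3 held the UPRE in 1 of its 3 promoter windows, and SSR4 in 1 of 2.

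Signal peptidase showed the same split except for SPCS1 and SPCS2. SEC11C and SEC11A encode alternative catalytic subunits. For SEC11C the levels were 8.86 on the REC-1 CC-292 array against 9.24 on the REC-1 control array, and 10.72 on the Z138 CC-292 array against 10.43 on the Z138 control array, a difference of -0.38 in REC-1 and 0.29 in Z138. A dim second probe set of SEC11C was 0.19 higher in REC-1. SEC11A had 9.33 with CC-292 and 9.43 in the control in REC-1, and 10.55 with CC-292 and 10.38 in the control in Z138, so its differences of -0.10 in REC-1 and 0.16 in Z138 had the same signs as those of SEC11C at a smaller size. SPCS3 differed by -0.03 in REC-1 and 0.17 in Z138, with all 3 probe sets of 1 sign in each line. SPCS1 differed by -0.20 in REC-1, where its other probe set was 0.64 higher, and by -0.05 in Z138. SPCS2 was read here by a single dim probe set, since 3 others carry several symbols and were left out. On it the level was 5.41 in CC-292 and 4.63 in control REC-1 cells, and 5.73 in CC-292 and 4.61 in control Z138 cells, or 1.71-fold higher in REC-1 and 2.16-fold higher in Z138. The control values, 4.632 in REC-1 and 4.612 in Z138, lay just below the brightness minimum of 4.633. SPCS2 was thus kept only through its CC-292 values, and its differences start from values near background.

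Of the 8 oligosaccharyltransferase genes, 7 were below 0 in REC-1 (median -0.20) and 7 above 0 in Z138 (median 0.14). The REC-1 median was -0.10 when probe sets were averaged. RPN1 was the lowest in REC-1, with 8.98 on the REC-1 CC-292 array against 9.35 on the REC-1 control array, and 9.99 on the Z138 CC-292 array against 9.86 on the Z138 control array. All 4 RPN1 probe sets were lower in REC-1 and all 4 higher in Z138 (means -0.16 in REC-1 and 0.26 in Z138). Its partner RPN2 differed by -0.28 in REC-1 and 0.12 in Z138, although the second probe set of RPN2 was higher in REC-1. The catalytic subunits had the same signs. STT3A, which works on chains entering the channel, had 9.32 in CC-292 and 9.55 in control REC-1 cells, and 9.01 in CC-292 and 8.85 in control Z138 cells, and STT3B, which acts on sites that were missed, had 9.80 in CC-292 and 9.96 in control REC-1 cells, and 10.34 in CC-292 and 10.19 in control Z138 cells. Their differences were -0.24 and -0.16 in REC-1 and 0.16 and 0.15 in Z138. DAD1, a small core subunit, was lower in REC-1 on all 4 probe sets (-0.27, SD 0.04 over 4 probe sets) and differed by -0.02 in Z138. OST4 was above 0 in both lines, with 0.09 in REC-1 and 0.07 in Z138. DDOST differed by -0.12 in REC-1 and 0.14 in Z138, and OSTC by -0.04 in REC-1 and 0.20 in Z138.

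Of 11 chaperones and partners, 9 were below 0 in REC-1, with a median of -0.32 that was -0.16 when probe sets were averaged. In Z138 all 11 were above 0, with a median of 0.11. HSPA5, which encodes the chief ER chaperone BiP, was level in REC-1. Its levels were 10.16 on the REC-1 CC-292 array against 10.16 on the REC-1 control array, and 10.89 on the Z138 CC-292 array against 10.78 on the Z138 control array, and over its 6 probe sets the REC-1 difference ran from a lowest value of -0.34 to a highest of 0.0039. HSP90B1, the ER form of HSP90 needed by integrins and Toll-like receptors, had 12.33 with CC-292 and 12.74 in the control in REC-1, and 12.88 with CC-292 and 12.77 in the control in Z138. That REC-1 difference of -0.41 rested on 4 of 7 probe sets (mean -0.05), while all 7 were higher in Z138 (mean 0.16). HYOU1, the nucleotide exchange factor of BiP, was lower in REC-1 on 8 of 8 probe sets, with 9.22 on the REC-1 CC-292 array against 9.65 on the REC-1 control array, and 8.67 on the Z138 CC-292 array against 8.61 on the Z138 control array. Its REC-1 difference was -0.43 (SD 0.39 over 8 probe sets) and its Z138 difference 0.06 (SD 0.41 over 8 probe sets). MANF, a small ER protein secreted under stress, had the third lowest REC-1 difference of the 52 genes. It stood at 9.69 with CC-292 and 10.17 in the control in REC-1, and 10.82 with CC-292 and 10.59 in the control in Z138, a difference of -0.48 in REC-1 and 0.23 in Z138 on 1 probe set.

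The lectin chaperones CANX and CALR, which hold glycoproteins until they fold, were lower in REC-1 on every probe set over the minimum (9 of 9 and 2 of 2). CANX had 11.75 in CC-292 and 12.03 in control REC-1 cells, and 12.58 in CC-292 and 12.51 in control Z138 cells. CALR was at 6.70 in CC-292 and 7.06 in control REC-1 cells, and 6.57 in CC-292 and 6.38 in control Z138 cells. The spread over probe sets was small in REC-1, where CANX differed by -0.28 (SD 0.14) and CALR by -0.35 (SD 0.09). The J-domain partners of BiP did not share a sign in REC-1. DNAJC3, which is also known as an inhibitor of the kinase PERK, had 5.26 on the REC-1 CC-292 array against 5.90 on the REC-1 control array, and 7.76 on the Z138 CC-292 array against 7.71 on the Z138 control array. Its REC-1 difference of -0.63 was seen on 1 of 3 probe sets (mean -0.08). DNAJB9 was higher in both lines, with 8.42 with CC-292 and 8.24 in the control in REC-1, and 9.89 with CC-292 and 9.60 in the control in Z138, and DNAJB11 was lower in REC-1 (-0.32) and higher in Z138 (0.16). SDF2L1, which works with DNAJB11, had 7.95 in CC-292 and 8.11 in control REC-1 cells, and 8.58 in CC-292 and 8.16 in control Z138 cells, and at 0.43 was the highest of the 49 brighter members in Z138. CRELD2 differed by -0.26 in REC-1 and 0.05 in Z138.

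Disulfide isomerases were lower in REC-1 for 3 of 4 genes and higher in Z138 for 4 of 4. P4HB, the founding enzyme of the family, had 10.28 on the REC-1 CC-292 array against 10.72 on the REC-1 control array, and 11.68 on the Z138 CC-292 array against 11.60 on the Z138 control array. All 6 of its probe sets were lower in REC-1 and all 6 higher in Z138, with differences of -0.44 in REC-1 (SD 0.13) and 0.08 in Z138 (SD 0.13). PDIA6 had 9.84 with CC-292 and 10.14 in the control in REC-1, and 10.77 with CC-292 and 10.50 in the control in Z138, with all 3 probe sets lower in REC-1. PDIA4 was 0.05 higher in REC-1 on its brightest probe set and lower on its other 2 (mean -0.19), and 0.20 higher in Z138 (SD 0.01 over 3 probe sets). PDIA3, the partner of the lectin chaperones, differed by -0.12 in REC-1 and 0.01 in Z138.

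In ER-associated degradation, SEL1L and SYVN1 encode the core of a ubiquitin ligase, and their brightest probe sets did not share a sign. SEL1L had 8.45 on the REC-1 CC-292 array against 8.80 on the REC-1 control array, and 10.47 on the Z138 CC-292 array against 10.08 on the Z138 control array. It was lower in REC-1 (-0.35, SD 0.39 over 3 probe sets) and higher in Z138 (0.39, SD 0.36 over 3 probe sets). Each of 3 probe sets was higher in Z138, and 2 of 3 were lower in REC-1. SYVN1, on 1 probe set over the minimum, had 10.07 with CC-292 and 10.05 in the control in REC-1, and 9.01 with CC-292 and 9.17 in the control in Z138. It was level in REC-1 and 1.12-fold lower in Z138 (-0.16), both within the pooled SD between probe sets. EDEM1, which marks misfolded glycoproteins, differed by -0.17 in REC-1 with all 5 probe sets lower (mean -0.47) and by 0.21 in Z138. DERL1, part of the exit channel, differed by -0.22 in REC-1 and 0.19 in Z138, but in REC-1 2 of its 3 probe sets were above 0.

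The Golgi branching enzymes had no common direction. MGAT1, which starts branching, had 7.42 with CC-292 and 7.40 in the control in REC-1, and 6.89 with CC-292 and 7.06 in the control in Z138 and was the lowest member in Z138 at -0.16. MGAT2, the next enzyme, differed by -0.20 in REC-1 and 0.17 in Z138. MGAT4A, which adds a further branch, had 5.82 in CC-292 and 4.69 in control REC-1 cells, and 4.30 in CC-292 and 3.37 in control Z138 cells. Both Z138 values of MGAT4A lay below the brightness minimum, so its 1.9-fold difference there lies between values near background. In REC-1 it was 2.18-fold higher on that probe set, against -0.31 on the lowest of 3 probe sets over the minimum (SD 0.72).

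**Figure D3:**
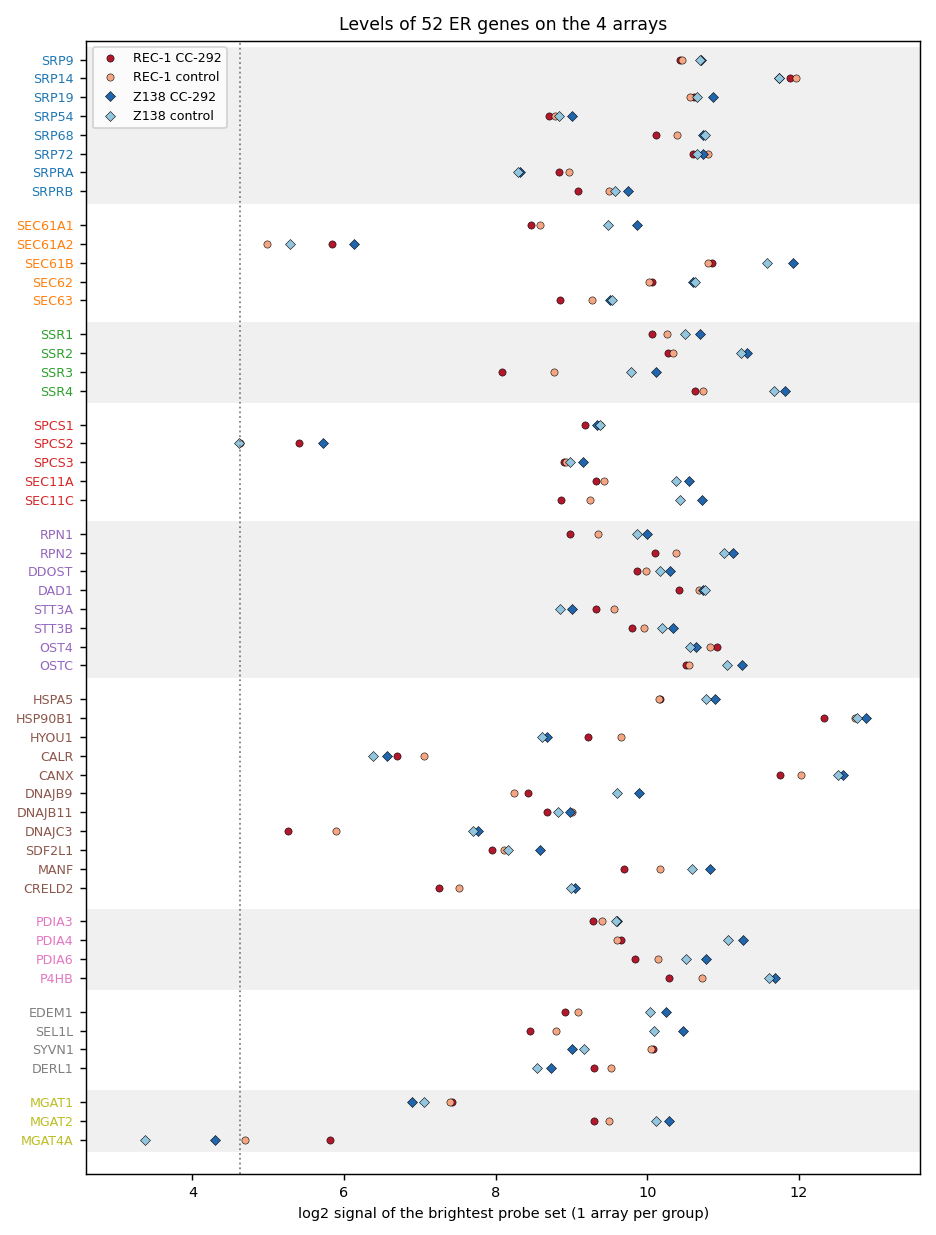
Log2 signal of the brightest probe set of 52 ER genes on the 4 arrays, grouped by role in shaded bands, with the brightness minimum as a dotted line. Levels are to be compared within a gene. Blue diamonds (Z138) lie right of red circles (REC-1) for most genes, with HYOU1, CALR, SYVN1, DERL1 and MGAT4A among the exceptions.

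The difference between the responses of the lines was below 0, that is lower in REC-1, for 47 of 52 members, against 56.9% of all genes. Its median was -0.30, against -0.06 over all genes. It reached 1.5-fold downward in 7 members (SSR3, SEL1L, MANF, DNAJC3, SEC11C, SRPRB and SDF2L1), against 8.81% of all genes, and upward in none, against 7.72%. The 5 members above 0 compare with 43.1% of all genes. At 2-fold the count was 1 downward (2.04% of all genes) and 0 upward (2.07%). The lowest value was -1.01 for SSR3 (SD 0.33 over 4 probe sets). With 1 array per group this difference was not tested.

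The second comparison set the control lines against each other. REC-1 control cells had lower levels than Z138 control cells for 39 of 52 members, against 48.9% of all genes, and higher levels for 13, against 51.1%. The median was -0.25, against 0.02 for all genes. At least 1.5-fold lower in REC-1 were 18 members (21.7% of all genes) and at least 1.5-fold higher 7 (22.2% of all genes). At 2-fold these counts were 7 (12.4% of all genes) and 2 (11.9%). This comparison and the REC-1 and Z138 differences share the control arrays.

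**Figure D4:**
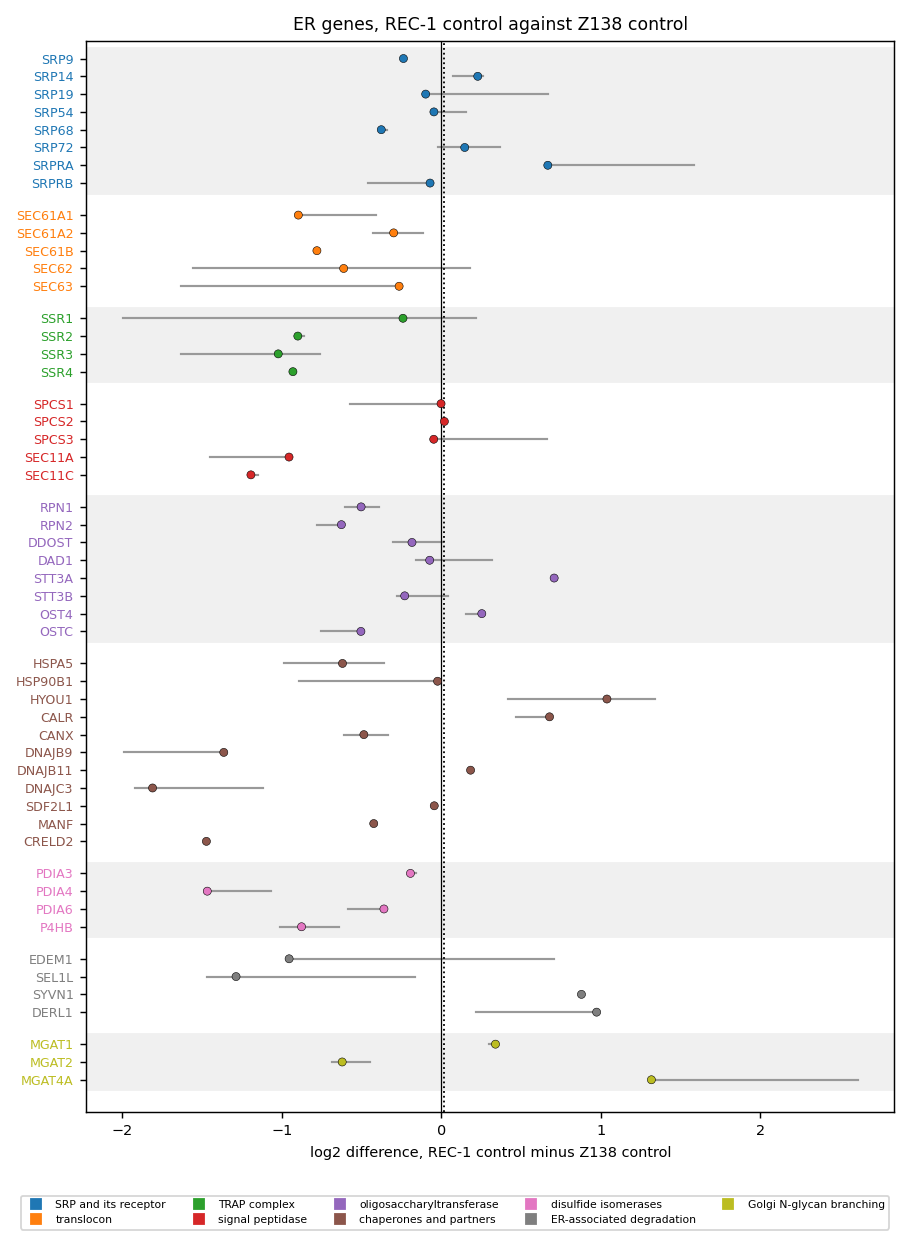
Log2 difference, REC-1 control minus Z138 control, of 52 ER genes, coloured by role, with grey lines from the lowest to the highest probe set and a dotted line at the median of all genes. DNAJC3, CRELD2, PDIA4 and DNAJB9 lie farthest left, and MGAT4A and HYOU1 farthest right.

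DNAJC3 was the gene most shifted towards Z138, at -1.81 (SD 0.43 over 3 probe sets), or 3.51-fold lower in REC-1 control cells. CRELD2 and PDIA4 were 2.78-fold and 2.77-fold lower in REC-1. DNAJB9 was at -1.36 (SD 0.44 over 2 probe sets) and SEL1L at -1.29 (SD 0.71 over 3 probe sets). The catalytic signal peptidase genes SEC11C and SEC11A, both lower in REC-1, were at -1.19 (SD 0.03 over 2 probe sets) and -0.95 (SD 0.25 over 4 probe sets). In the TRAP complex 4 of 4 genes were lower in REC-1, with -1.02 for SSR3, -0.93 for SSR4, -0.90 for SSR2 and -0.24 for SSR1. The SSR1 mean over 8 probe sets was -0.72 (SD 0.84), with values from -2.00 to 0.22. The 5 channel genes were also all lower in REC-1, with SEC61A1 at -0.90, SEC61B at -0.78 and SEC61A2 at -0.30. P4HB at -0.88 and HSPA5 at -0.62 were lower in REC-1 on each of their 6 probe sets. EDEM1 was at -0.95 on its brightest probe set but at -0.03 as the mean of 5.

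Members that ran the other way were fewer. HYOU1 was 2.05-fold higher in REC-1 control cells (1.04, SD 0.37 over 8 probe sets), on 8 of 8 probe sets. CALR at 0.68, DERL1 at 0.97, SYVN1 at 0.88 and SRPRA at 0.67 were likewise higher in REC-1. The catalytic oligosaccharyltransferase genes differed in sign here, with STT3A at 0.71 and STT3B at -0.23. MGAT4A was the highest of the 52 at 1.32, with both Z138 values below the minimum and a mean of 2.06 over 3 probe sets. Targeting genes were nearly equal between lines (median -0.06), a sign that turned with the mean of all probe sets (0.11). The median of the 4 degradation genes (-0.04) turned in the same way (0.23). HSP90B1, MANF and CANX were at -0.02, -0.42 and -0.49. For HSP90B1 all 7 probe sets were lower in REC-1 control cells, with a mean of -0.33 (SD 0.30).

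Markers of plasma cells, the B-lineage cells with the most ER, also differed between the lines. All 5 were lower in REC-1, and their summed linear signal was 1186 in REC-1 control cells and 12107 in Z138 control cells (996 and 11948 with CC-292 in REC-1 and Z138). The surface proteoglycan gene SDC1 had 3.61 in REC-1 control cells, below the brightness minimum, and 8.48 in Z138 control cells. TNFRSF17, which encodes BCMA, had 4.69 and 10.33 in REC-1 and Z138 control cells, and PRDM1 had 6.08 and 7.84. Within REC-1, 4 of these 5 were lower with CC-292 and JCHAIN was higher. Of the 4, SDC1 was below the minimum on both REC-1 arrays (3.54 with CC-292). TNFRSF17 was below it with CC-292 (3.87) and just over it in the control. PRDM1 (5.72 with CC-292, 6.08 in the control) and IRF4 (8.65 and 9.35) lay over it on both. Within Z138, SDC1 (8.89 with CC-292, 8.48 in the control), PRDM1 (8.53 and 7.84) and IRF4 (11.13 and 11.06) were higher, and TNFRSF17 and JCHAIN, the brightest of the 5, were lower. Their part in the ER gene differences was not tested.

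Regulators of the unfolded protein response were set beside their targets. XBP1, on 1 probe set, had 7.82 on the REC-1 CC-292 array against 8.41 on the REC-1 control array, and 9.58 on the Z138 CC-292 array against 9.30 on the Z138 control array, so it had the signs of most ER members in both lines and in the line comparison (-0.89). ATF6 did not share that sign in REC-1 on its brightest probe set, with 7.04 with CC-292 and 6.57 in the control in REC-1, and 7.21 with CC-292 and 7.16 in the control in Z138. In REC-1 2 of its 3 probe sets were higher, with a mean of 0.13 (SD 0.32) and a lowest value of -0.16. ERN1, which encodes the sensor that activates XBP1, stayed below the brightness minimum on all 4 arrays. HERPUD1, a degradation factor induced by these regulators, had 8.34 in CC-292 and 8.69 in control REC-1 cells, and 9.72 in CC-292 and 9.63 in control Z138 cells, with all 3 probe sets lower in REC-1 (SD 0.03). ATF4 had 11.61 with CC-292 and 11.92 in the control in REC-1, and 12.47 with CC-292 and 12.30 in the control in Z138. DDIT3, which encodes CHOP downstream of ATF4, had 6.10 in CC-292 and 6.84 in control REC-1 cells, and 6.55 in CC-292 and 6.47 in control Z138 cells, and TRIB3, a target of CHOP, was at -0.93 in REC-1 and 0.17 in Z138. The remaining sensor gene EIF2AK3, which encodes PERK, differed by 0.07 in REC-1 and 0.03 in Z138 with CC-292, and by -1.45 between the control lines. Over its 3 probe sets the REC-1 mean was -0.33. Of the 14 measured genes of this list, 9 were below 0 in REC-1 (median -0.20), near the 57.8% of all genes. In Z138 11 were above 0 (median 0.06), against 51.9% of all genes.

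The 8 members with an ERSE or ERSE-II in their window had a median difference of -0.29 in REC-1, with 7 of 8 below 0 (57.8% of all genes). In Z138 their median was 0.11, with 8 of 8 above 0 (51.9% of all genes). All of them but PDIA6 belong to the 11 chaperones and partners, whose REC-1 median was -0.32. Element and role therefore cannot be told apart here. The values are those of brightest probe sets, and for HSP90B1 the REC-1 mean over 7 probe sets was -0.05. The 5 members with a UPRE, of which HYOU1 also held ERSE-II, had medians of -0.11 in REC-1 and 0.14 in Z138. Of them 3 were below 0 in REC-1 and 1 in Z138. Close to these, the 33 measured members with a window but none of the 3 elements had medians of -0.12 in REC-1 and 0.16 in Z138. Of those, 25 were below 0 in REC-1 and 5 below 0 in Z138. These are descriptions of overlapping ranges. With an ERSE or ERSE-II the REC-1 values ran from -0.43 (HYOU1) to 0.0038 (HSPA5). Without any of the 3 elements they ran from -0.63 (DNAJC3) to 0.85 (SEC61A2). Between the control lines, 6 of the 8 members with an ERSE or ERSE-II were lower in REC-1, from -1.47 (CRELD2), while HYOU1 (1.04) and CALR (0.68) were higher.

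**Figure D5:**
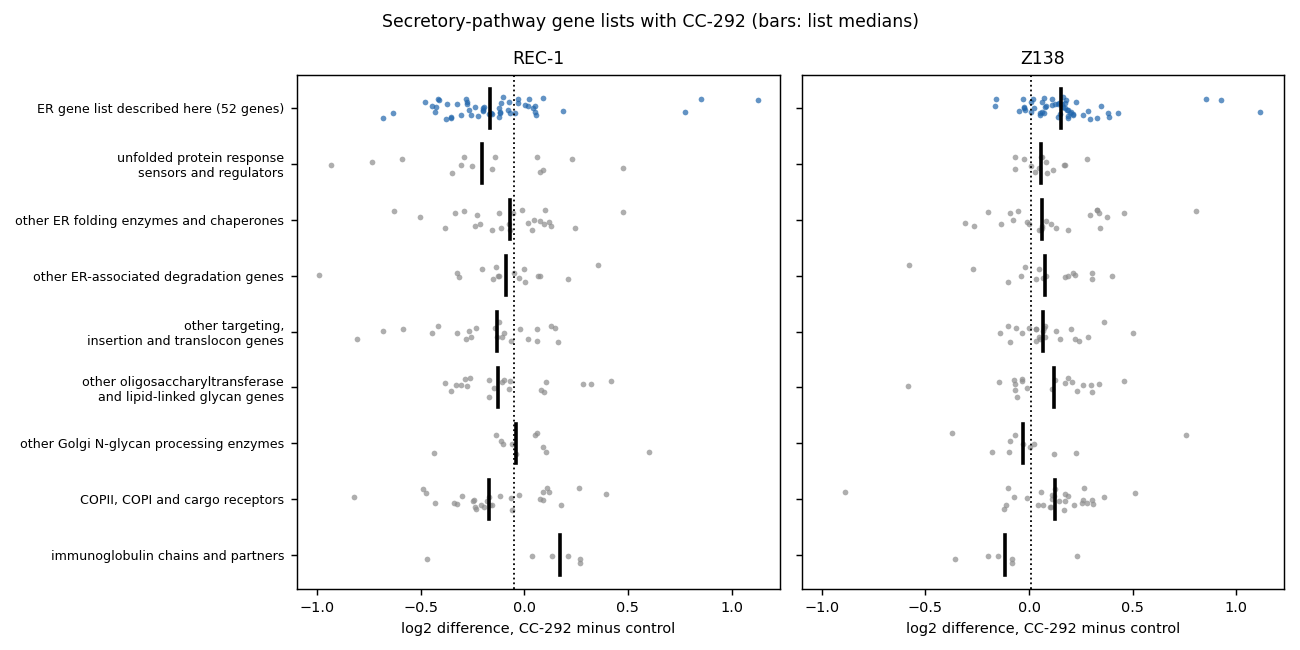
Log2 difference with CC-292 in REC-1 (left) and Z138 (right) for the 52 ER genes (blue) and genes of 8 other secretory-pathway lists (grey), with list medians as bars and the median of all genes as a dotted line. The list of vesicle coat and cargo receptor genes has medians of -0.17 in REC-1 and 0.13 in Z138, and that of immunoglobulin chains and partners 0.17 in REC-1 and -0.12 in Z138.

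Other genes of the secretory pathway were counted from lists drawn up by function. Among all genes, 57.8% were below 0 in REC-1, 51.9% above 0 in Z138 and 31.4% both. Of 29 coat and cargo receptor genes of transport between ER and Golgi, 21 were below 0 in REC-1 (median -0.17) and 23 above 0 in Z138 (median 0.13), 18 of them both. The coat gene SEC24D had 5.43 with CC-292 and 6.25 in the control in REC-1, and 7.96 with CC-292 and 7.60 in the control in Z138. The budding GTPase gene SAR1A had 8.04 in CC-292 and 8.51 in control REC-1 cells, and 7.64 in CC-292 and 7.13 in control Z138 cells, and LMAN1, a cargo receptor, differed by -0.33 in REC-1 and 0.31 in Z138. KDELR3, a receptor that returns ER chaperones, was the lowest of the list in Z138 at -0.89, dim on every array. Of 23 other targeting and insertion genes, 17 were below 0 in REC-1 (median -0.13) and 17 above 0 in Z138 (median 0.07). NCLN and TMCO1, of channel-associated complexes, were at -0.81 and -0.68 in REC-1 and at 0.22 and 0.07 in Z138. Unlike the members, 19 of these 23 were higher in REC-1 control than in Z138 control cells (median 0.24), against 51.1% of all genes.

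Among 25 other folding genes, 15 were below 0 in REC-1, near the 57.8% of all genes, and 16 above 0 in Z138 (51.9% of all genes). Their medians were -0.07 in REC-1 and 0.06 in Z138. The prolyl isomerase gene FKBP11 had 7.60 on the REC-1 CC-292 array against 8.10 on the REC-1 control array, and 10.20 on the Z138 CC-292 array against 9.82 on the Z138 control array, and FKBP14 of the same family differed by -0.63 in REC-1 and 0.81 in Z138. The oxidase gene ERO1B was at 0.48 in REC-1 and -0.20 in Z138. Of 16 other degradation genes, 11 were below 0 in REC-1 (median -0.09, 57.8% of all genes below 0). In Z138 11 were above 0 (median 0.07, 51.9% of all genes above 0). SELENOS of that list was at -0.99 in REC-1, where its 2 probe sets disagreed (SD 1.22), and MAN1B1 was at -0.58 in Z138. The 20 genes of glycan precursor synthesis and transfer had medians of -0.13 in REC-1 and 0.12 in Z138. Of them 14 were below 0 in REC-1 (57.8% of all genes) and 11 above 0 in Z138, near the 51.9% of all genes. The Z138 median was 0.026 when probe sets were averaged. Among them was the transferase subunit gene MAGT1 at -0.38 in REC-1 and 0.17 in Z138. Golgi glycan enzymes beyond the MGAT members had medians of -0.04 in REC-1 and -0.03 in Z138 over 11 genes. Below 0 were 6 in each line, near the shares of all genes (57.8% in REC-1 and 48.1% in Z138). The sign of the REC-1 median turned without a brightness filter (0.051), at the 70th percentile (0.0053) and with cyclic loess (0.0028). The Z138 sign turned when probe sets were averaged (0.021).

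Immunoglobulin chains, the main cargo of this machinery in B cells, and their partners had mostly other signs. Of 6 measured genes, 5 were above 0 in REC-1 (median 0.17), against 42.1% of all genes. In Z138 5 were below 0 (median -0.12, and 0.014 with the mean of all probe sets), against 48.1%. Higher in REC-1 were the partners JCHAIN (9.01 with CC-292, 8.74 in the control), CD79A (11.03 and 10.76), CD79B (11.79 and 11.65) and MZB1. Of the chains, IGHM was nearly level in REC-1 and IGKC was lower. The mu heavy chain gene IGHM had 12.69 on the REC-1 CC-292 array against 12.65 on the REC-1 control array, and 12.45 on the Z138 CC-292 array against 12.60 on the Z138 control array. The kappa chain gene IGKC, on 1 probe set, was at -0.47 in REC-1 and -0.36 in Z138, where it was near or below the brightness minimum. JCHAIN, the joining chain of polymeric antibody, had 8.74 in REC-1 control and 12.98 in Z138 control cells. MZB1, an ER co-chaperone of immunoglobulin assembly, was higher with CC-292 in both lines, at 0.21 in REC-1 and 0.23 in Z138.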

How the data were processed

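The authors deposited log2 probe-set signals for 4 arrays. The submitters' processing notes name Affymetrix Expression Console 1.1 and RMA. The sources used here give no settings. Values of 2.18 to 14.26 place the deposited table on a log2 scale. Of 49386 probe sets, 45259 had 1 gene symbol, 1327 several and 2800 none, and only those with 1 were used. Through Entrez identifiers, 45178 matched the RefSeq gene table and no symbol changed.

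Each gene was read by its brightest probe set (mean of the arrays). It was kept if its highest value reached the median of all values. Groups came from the sample titles. Differences were CC-292 minus control per line, REC-1 control minus Z138 control, and the difference of the line differences. With 1 array per group and members and lists chosen with earlier results of these data known, no test was made. The number of arrays limits the precision.

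Named genes were up to 8 highest and 8 lowest members per comparison, a member of each role, paralogue pairs, up to 3 highest and lowest genes of each other list (a part is given), and XBP1, ATF6, ERN1, ATF4, DDIT3, HERPUD1, HSPA5 and BTK. The other members are given more briefly. Genes without a single-symbol probe set were not analysed here. Promoter windows were searched by exact letters. As alternatives, the brightness filter was dropped or set at the 70th percentile, and the following were tried: median centring, quantile normalization, cyclic loess (limma 3.58.1 in R 4.3.3), averaging probe sets, taking the one with the median difference, and a 2-fold threshold. The procedure was tested on simulated data. Python 3.11.15, pandas 2.3.3, numpy 2.4.6 and matplotlib 3.10.9 were used.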

Additional observations from a re-analysis of the deposited data

Results flagged for a closer look

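The median of the 52 ER genes had opposite signs with CC-292 in the lines, -0.16 in REC-1 and 0.15 in Z138. Of the 52, 39 had opposite signs on the single pair of arrays of each line, and 7 of these differed between the lines by at least 1.5-fold. The values, REC-1 difference minus Z138 difference, were -1.01 for SSR3, -0.74 for SEL1L, -0.71 for MANF, -0.69 for DNAJC3, -0.67 for SEC11C, -0.59 for SRPRB and -0.59 for SDF2L1. The difference between the lines was not tested, because each group has 1 array. DNAJC3 and SEC11C rest on their brightest probe sets in REC-1, where the other probe sets of each gene were above 0. For SEL1L, 2 of 3 probe sets were below 0 in REC-1, and for SRPRB the Z138 mean over 3 probe sets was 0.01. MANF and SDF2L1 have 1 probe set each.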

How the results depend on the processing

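The member medians kept their sign under the 7 alternatives of filter, scaling and probe-set choice. They ranged from -0.20 to -0.11 in REC-1, from 0.13 to 0.15 in Z138, from -0.32 to -0.25 between the control lines and from -0.31 to -0.23 for the difference between responses. Medians of short lists moved more. With probe sets averaged, the REC-1 median of coat and cargo receptor genes was -0.09, that of the MGAT members 0.19 (and -0.09 at the 70th percentile), and the Z138 medians of other folding and other degradation genes were 0.11 and 0.12. With cyclic loess, the REC-1 medians were -0.04 for targeting, -0.04 for signal peptidase, -0.10 for TRAP, -0.01 for other folding, -0.03 for other degradation and -0.08 for other targeting genes. Counts past 1.5-fold were small and moved more. In REC-1, 3 members were higher, but 1 with the mean of probe sets, 1 with the probe set of median difference, 1 at 2-fold and 0 at the 70th percentile. The 2 lower members became 0 with the mean, with the median difference and at 2-fold. In Z138, the 3 higher members became 1 with the mean, 1 with the median difference, 1 at 2-fold and 0 at the 70th percentile, which leaves those 3 genes out. Between control lines, 7 members were higher in REC-1, but 4 with the mean, 4 with the median difference and 2 at 2-fold, and the 18 lower ones became 7 at 2-fold. The 7 members lower by the difference between responses became 1 at 2-fold. With the mean of probe sets, 17 of 208 single differences of members moved by more than the pooled SD between probe sets, and 0 of 208 did so with quantile normalization. The cause was not tested beyond what each setting leaves out. No paired analysis was possible because each group has 1 array and the labels give no replicate numbers.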
